A study of Saccharomyces cerevisiae with 12 samples.

Results

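The baseline pattern of acetylated histone H4 (AcH4) along the chromosomes of wild type budding yeast, *Saccharomyces cerevisiae*, was described from 3 of the 12 arrays of the series, chosen by their strain label alone. The 3 arrays held independent chromatin immunoprecipitation (ChIP) samples of BY4741, grown in rich medium (YPD). BY4741 is a MATa laboratory strain with deletions in the markers *his3*, *leu2*, *met15* and *ura3*. DNA recovered with an antibody against hyperacetylated H4 (IP) carried the dye Cy5 and the input DNA of the same preparation carried Cy3. Both were amplified by double T7 linear amplification and hybridized together to a tiling array, so every probe gave a ratio of IP over input. No array of the series measured total histone, so AcH4 levels here are not corrected for histone density. No array had the dyes exchanged, so IP and Cy5 cannot be told apart. The other 9 arrays, 3 for each of the deletion strains *rco1*Δ, *rsc1*Δ and *rsc2*Δ, came from YPD cultures put through the same steps and were used only where wild type was set against them. The *rco1*Δ strain carries KANMX6 in place of *RCO1* in the BY4741 background, and the labels name the other strains by the deletion alone.

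Histone H4 is acetylated on lysines of its N-terminal tail, largely by the NuA4 acetyltransferase in yeast. The acetyl groups are removed by histone deacetylases such as Rpd3 and Sir2. Acetylated H4 is typical of promoters and the starts of transcribed genes, whereas the interior of many open reading frames is deacetylated by the Rpd3S complex, of which Rco1 is a subunit. Rsc1 and Rsc2 are alternative subunits of RSC, a chromatin remodeler with bromodomains, which bind acetylated lysines. Chromatin near telomeres and at the silent mating-type loci is held in a deacetylated state by the Sir proteins. Mitochondrial DNA has no histones and serves as a natural blank.

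The arrays carried 41480 probes on the 16 nuclear chromosomes and 295 on the mitochondrial genome, with a median length of 60 nt. The starts of neighboring nuclear probes lay a median of 257 bp apart, and 144 gaps were wider than 1 kb, the widest 15416 bp. Positions were taken from the probe names, which refer to the sacCer1 assembly. The files pair no probe with a gene and no genome of that assembly was used, so regions are given by position only and no sequence is shown. Values are log2(IP/input) with the median of each array at 0, so a level of 1 is a ratio 1 log2 unit above the median probe. Between 89.0% and 98.2% of all probes were well above background in the IP channel of a wild type array and between 95.1% and 99.4% in the input channel. Replicates 1 and 2 were scanned together and replicate 3 in another scan. The small number of arrays limits the precision of every mean.

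AcH4 differed strongly from probe to probe and hardly at all from chromosome to chromosome. Over the nuclear probes, the 10th percentile of log2(IP/input) was -2.40 ± 0.14 and the 90th percentile 1.80 ± 0.01 (SD, n = 3). The lower side was thus the longer one, and the mean lay at -0.15 ± 0.04 (SD, n = 3). The same probe gave nearly the same value on each array, with r between 0.94 and 0.97 for the pairs of arrays over the nuclear probes. Replicates 2 and 3, from different scans, were the closest pair and replicates 1 and 2, from 1 scan, the least close. The IP channel carried most of the pattern: its SD over probes was 2.04 ± 0.03, against 1.03 ± 0.02 in input (SD, n = 3), and the ratio correlated with IP at r = 0.87 and with input at r = 0.16 over about 41149 probes per array. These are correlations across probes of 1 array, which are not independent replicates.

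Of the 41480 nuclear probes tested against the array median, 16858 were called above it and 16789 below it at an adjusted p under 0.05 (limma, Benjamini-Hochberg adjustment over all nuclear probes). That is 40.6% of the probes above and 40.5% below, and these shares are the background for the counts given below. The remaining probes could not be told from the median with 3 arrays, which does not show that they lie at it.

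Most of the variation lay at short range. Windows of 1 kb accounted for 75% of the variance of the probe means, a share that includes chance since such a window holds few probes. With windows of 10 kb the share was 16%, with 50 kb 3.58%, and with whole chromosomes 0.21%. The SD of the window levels was 0.84 for windows of 5 kb, 0.63 for 10 kb, 0.45 for 20 kb, 0.32 for 50 kb and 0.23 for 100 kb. Even the broadest of these levels repeated well, with r of at least 0.978 between arrays at each of the 5 window sizes, and a median SD between arrays of 0.08 at 5 kb and 0.04 at 100 kb.

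Neighboring probes shared their AcH4 level over a distance of well under 1 kb. The agreement was measured between different arrays, so that a value on 1 array was set against a neighbor's value on another and no spot noise was shared. The same probe on different arrays agreed at r = 0.95. For probes less than 200 bp apart r was 0.79, for 400 to 600 bp it was 0.58, for 800 to 1000 bp it was 0.35, and for 1800 to 2000 bp it was 0.04. The correlation had dropped to 50% of its same-probe value at 663 bp, and the 3 pairs of arrays put this distance between 654 and 679 bp. Between 2200 bp and 8 kb the highest value was 0.0247 and the lowest -0.0151. Probes this close share DNA fragments of the ChIP sample, and fragment length was not measured here.

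The channels behaved differently over distance. For the IP signal alone the same-probe correlation was 0.98 and 50% of it was reached at 298 bp. In input, r was 0.91 for the same probe and only 0.12 for probes less than 200 bp apart, so brightness of the input channel was almost a property of each single probe. The ratio of the channels thus resembled its neighbors over a longer distance than the IP signal did.

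**Figure D1:**
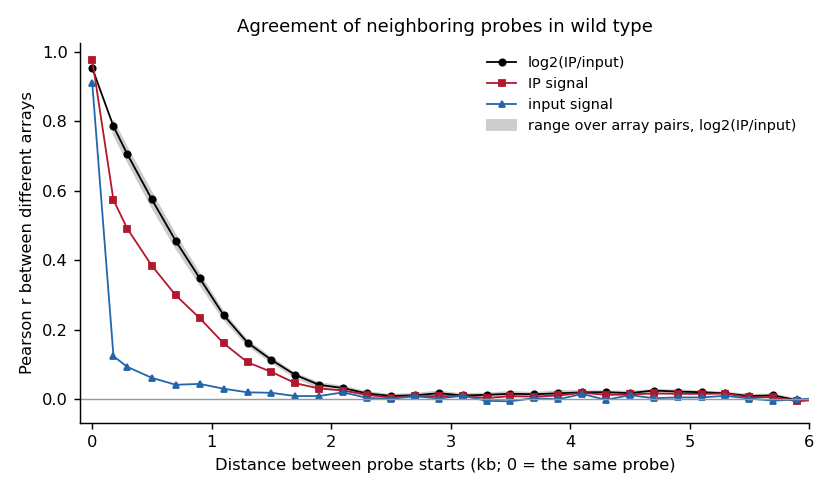
Pearson correlation between different wild type arrays (y axis) against the distance between probe starts in kb (x axis, 0 is the same probe), for log2(IP/input), the IP signal and the input signal, with the range over pairs of arrays shaded. The ratio keeps r = 0.58 at 400 to 600 bp, while input is at 0.12 for probes less than 200 bp apart.

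Runs of at least 3 neighboring probes with a mean level of 1 or more were taken as AcH4-rich stretches, and runs at -1 or less as AcH4-poor stretches, with at most 1 kb between neighbors. AcH4-rich stretches were short and their mean height changed little with width, whereas AcH4-poor stretches were wider and had lower means the wider they were. There were 1399 rich stretches, which held 14.4% of the nuclear probes, and 1559 poor stretches, which held 23.6%. Rich stretches had a median width of 774 bp, with 25% under 588.5 bp and 25% over 1104 bp. The median width of poor stretches was 1106 bp, with 25% under 729.5 bp and 25% over 1822 bp. Each array taken by itself gave the same order: the median width was 780 ± 21.4 bp for rich and 1084 ± 75.3 bp for poor stretches (SD, n = 3), and the widest rich median, 800 bp, was below the narrowest poor one, 1001.5 bp. These widths depend on the threshold and on the spacing of the probes. The number of rich stretches was 2333 at a threshold of 0.5 and 545 at 1.5, with median widths of 970 and 670 bp.

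Long stretches were almost all poor. Only 47 of the rich stretches were wider than 2 kb and 8 wider than 3 kb, against 328 and 140 of the poor ones. In the 3-array mean, 33 poor stretches and 0 rich ones exceeded 5 kb, although the longest rich stretch of replicate 3 by itself measured 5240 bp. The 33 long poor stretches held 808 probes, or 1.95% of the nuclear probes, and each of the 16 chromosomes had at least 1. Chromosome 12 had 5, and chromosomes 2 and 11 had 4 each. Of the 33, 2 reached into the outer 20 kb of a chromosome, which holds 1786 of the 41480 nuclear probes. Their mean level on a single array was between -3.68 and -2.11.

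**Figure D2:**
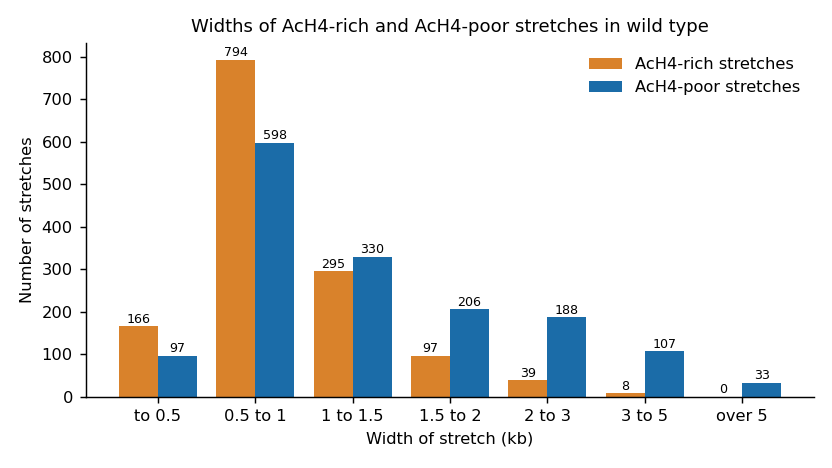
Number of AcH4-rich and AcH4-poor stretches (y axis) by width in kb (x axis) in the mean of the 3 wild type arrays. Rich stretches peak at 794 in the class from 0.5 to 1 kb and none is wider than 5 kb, while 33 poor stretches are.

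To read levels on an array that took no part in the choice, the stretches were defined from each pair of arrays and read on the array left out. These levels still depend on the threshold, on the rule of at least 3 probes and on how closely the arrays repeat. Rich stretches had a mean level of 1.78 ± 0.04 on the array left out and poor stretches -2.06 ± 0.17 (SD, n = 3). Single stretches varied. With replicates 1 to 3 left out, the SD over stretches was 0.40, 0.39 and 0.35 for rich and 0.52, 0.53 and 0.53 for poor ones. Of the poor stretches, between 95.6% and 99.7% were also at or below -1 on that array, and of the rich stretches between 96.7% and 99.4% were at or above 1. The level of rich stretches changed little with width, with 1.77 ± 0.04 up to 1 kb and 1.90 ± 0.09 between 3 and 5 kb (SD, n = 3), a class of only 5 to 7 stretches. Poor stretches averaged -1.82 ± 0.17 up to 1 kb, -2.09 ± 0.17 between 1 and 2 kb, -2.41 ± 0.18 between 2 and 3 kb, -2.55 ± 0.20 between 3 and 5 kb and -2.88 ± 0.22 above 5 kb (SD, n = 3). On every array the order of these 5 classes was the same. Edge probes lie near the threshold and weigh more in narrow stretches. On the array left out, poor stretches averaged -1.75 ± 0.16 at the edge (SD, n = 3). About 2000 bp inside, a depth only wide stretches reach, they averaged -3.09 ± 0.23 (SD, n = 3). How much of the change with width comes from this was not tested.

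The channels show where these levels come from. In rich stretches the IP signal stood 2.2 above the array median and input 0.25 above it. In poor stretches IP stood at -2.27 and input at -0.16. On the array left out, poor stretches wider than 5 kb had IP at -2.85 ± 0.16 and input at -0.10 ± 0.06, against -1.88 ± 0.14 and -0.20 ± 0.02 for those up to 1 kb (SD, n = 3), so the greater depth of wide stretches lay in the IP channel. In poor stretches 21.0% of the IP values were not well above background, and the share was 21.0%, 37.5% and 4.66% in replicates 1 to 3. In rich stretches it was 0.0223%. For the dimmest probes the log2 ratio is therefore set partly by the background step, and the depth of poor stretches is less certain than the height of rich ones.

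Outside the stretches the level is best read against the mean of the nuclear probes, -0.15 ± 0.04 (SD, n = 3). On the array left out, probes about 200 bp beyond the outermost probe of a poor stretch averaged -0.29 ± 0.12, those at about 600 bp 0.01 ± 0.07, and those at about 1200 bp 0.43 ± 0.03 (SD, n = 3). By about 2000 bp the level was 0.06 ± 0.03. Beyond rich stretches it was 0.39 ± 0.05 at about 200 bp, -0.07 ± 0.00 at about 800 bp and -0.24 ± 0.03 at about 1600 bp (SD, n = 3). The first step outside a stretch is set by the threshold, and what sets the levels further out was not tested. The centers of successive rich stretches lay a median of 6150.5 bp apart and those of poor stretches 5836 bp. The longest interval between successive rich stretches was 79663 bp, against 41544.5 bp for poor ones.

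The longest rich stretch lay on chromosome 14 between 370920 and 374665 (3746 bp, 15 probes), at 1.79, 1.99 and 2.10 in replicates 1 to 3. The next was on chromosome 10 between 188896 and 192357, at 2.10, 2.28 and 2.15, followed by chromosome 7 between 730724 and 734136, at 1.90, 1.64 and 1.72. All probes of these 3 stretches (15, 14 and 12) were called above the median, and all their IP values were well above background. The stretches were picked for a high mean on the same arrays, so the calls are not separate evidence. The 1 kb to the left and right of the first of them averaged 1.19 and 0.95, so AcH4 stayed above the median beyond its edges.

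The longest poor stretch covered 10640 bp on chromosome 8 between 303125 and 313764, with 40 probes at -3.05, -3.23 and -3.42 in replicates 1 to 3. It was bounded by AcH4 above the median, with mean levels of 0.70 and 1.00 over the 1 kb to the left and right of it. The second, on chromosome 12 between 351612 and 361576 (9965 bp, 40 probes), was at -3.24, -3.48 and -3.68, and the 1 kb on either side stayed low at -1.62 and -2.69. On chromosome 2 the stretch between 516898 and 525775 (8878 bp, 34 probes) was at -2.72, -2.90 and -3.25. All probes of these 3 stretches were called below the median, which again largely follows from picking them for a low mean on the same arrays. Their input signal was close to the median, between -0.23 and 0.03 on each array, while IP was between -3.58 and -2.81. Of the IP values in the 3 stretches, 53.3%, 43.3% and 64.7% were well above background, so the levels of the other values are only limits.

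**Figure D3:**
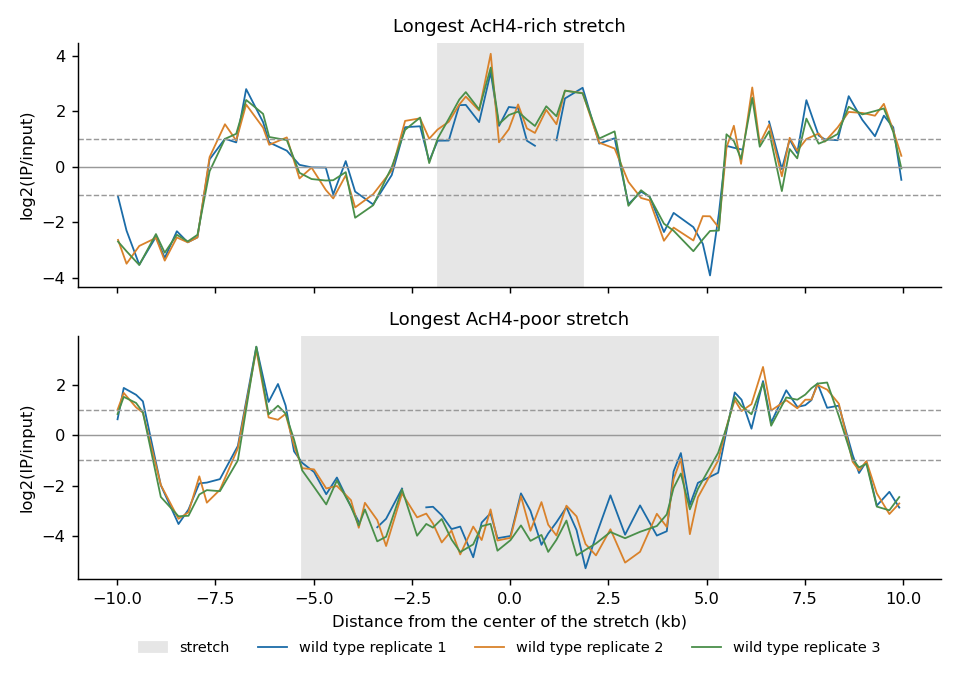
Log2(IP/input) of each probe (y axis, array median at 0) on the 3 wild type arrays against the distance in kb from the center of the longest AcH4-rich stretch (3746 bp) and the longest AcH4-poor stretch (10640 bp), which are shaded. Dashed lines mark 1 and -1, and gaps in the line of replicate 1 are spots with an outlier flag. The 3 arrays follow each other probe by probe, including the peaks on both sides of the poor stretch.

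On the scale of 10 kb, 432 of 1173 windows were called above the array median and 585 below it (limma with Benjamini-Hochberg adjustment, adjusted p under 0.05), which is 36.8% and 49.9%. The excess of low windows depends on the reference and on which probes are counted. Set against the mean of the nuclear probes in place of the median, 554 windows were above and 471 below. With only probes well above background in both channels 624 were above and 382 below. That filter takes out low ratios and the values were not centered again, so it raises windows by itself.

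The highest windows lay inside the chromosomes. The window on chromosome 4 between 610001 and 620000 stood at 1.37, 1.48 and 1.42 in replicates 1 to 3 (adjusted p = 2.1e-09 from limma). The next 4, on chromosome 11 from 430001, chromosome 1 from 30001, chromosome 10 from 460001 and chromosome 9 from 240001, had means between 1.15 and 1.21. The window nearest to an end was that of chromosome 1, at 29.95 kb from the outermost probe.

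The lowest window was at the very left end of chromosome 3, between 1 and 10000, where 20 probes averaged -3.50, -3.13 and -3.80 (adjusted p = 2.1e-09 from limma). Chromosome 3 carries the silent mating-type loci near its ends, but probes were not assigned to them here. The other 4 lowest windows were internal: -3.28 on chromosome 12 from 350001 and -2.48 on chromosome 8 from 300001, which overlap the long poor stretches above, -2.70 on chromosome 4 from 1370001, and -2.47 on chromosome 15 from 170001. They lay between 145 and 344 kb from the outermost probes.

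Whole chromosomes differed little from one another. The median level per chromosome spanned 0.42 on the log2 scale, and its SD over the 16 nuclear chromosomes was 0.10, against an SD of 1.60 ± 0.05 over probes (SD, n = 3). The lowest was chromosome 1, at -0.28, -0.25 and -0.27 in replicates 1 to 3, followed by chromosome 12 at -0.14, -0.15 and -0.16 and chromosome 6 at -0.10, -0.05 and -0.07. The highest was chromosome 8, at 0.13, 0.17 and 0.18, then chromosome 14 at 0.15, 0.14 and 0.11 and chromosome 4 at 0.09, 0.08 and 0.07. For each of these 6 the 3 arrays lay on the same side of the median (two-sided exact sign-flip permutation test, p = 0.25 for each, which is the lowest value 3 arrays allow).

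In the order of levels, chromosome 1 was separated from chromosome 12 and chromosome 12 from chromosome 6 without overlap of the arrays, and at the high end chromosome 14 from chromosome 4. From the low to the high end the order in between was 3, 13, 15, 2, 11, 10, 7, 16, 9 and 5, with means from -0.05 to 0.07. Of the 15 neighboring pairs in the order, 11 had overlapping ranges of the arrays. Taken within each array, the difference had the same sign on all 3 arrays for 7 of the 15 pairs, which include chromosomes 3 and 13, 13 and 15, 15 and 2, and 2 and 11, each with a difference of 0.01 or 0.02. The levels repeated, with Pearson r between 0.94 and 0.96 for the pairs of arrays over 16 chromosomes. Level and number of probes per chromosome correlated weakly (r = 0.29, rho = 0.20, 16 chromosomes), as did level and median input (r = 0.42). The chromosomes share their arrays, so these are descriptions only.

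The share of probes in stretches also differed between chromosomes. On chromosome 1, 28.6% of the probes lay in poor stretches and 15.0% in rich ones, and on chromosome 12 27.4% and 13.8%. Chromosome 8 had 22.0% in poor and 16.03% in rich stretches. Chromosome 7 had the smallest share in rich stretches, 11.2%, and chromosome 9 the largest, 16.7%. The ends of the chromosomes weighed on some levels. With probes over 50 kb from the ends only, a setting chosen after seeing the data, chromosome 3 stood at 0.22 ± 0.02, against -0.05 ± 0.04 with all its probes, whereas chromosome 1 was at -0.31 ± 0.03 and chromosome 6 at -0.19 ± 0.02 (SD, n = 3).

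These small levels have a sign only relative to the array median. Probes well above background in both channels moved all 6 chromosomes up, since the filter takes out low ratios and levels were not centered again, to 0.02, 0.16 and 0.13 for chromosomes 1, 6 and 12 and to between 0.27 and 0.31 for chromosomes 4, 14 and 8. Means in place of medians moved all 6 down, to between -0.37 and -0.20 for chromosomes 1, 12 and 6 and to -0.10, -0.04 and -0.05 for chromosomes 4, 14 and 8, against -0.15 for all nuclear probes. Under both, chromosomes 1, 12 and 6 stayed below chromosomes 4, 14 and 8.

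**Figure D4:**
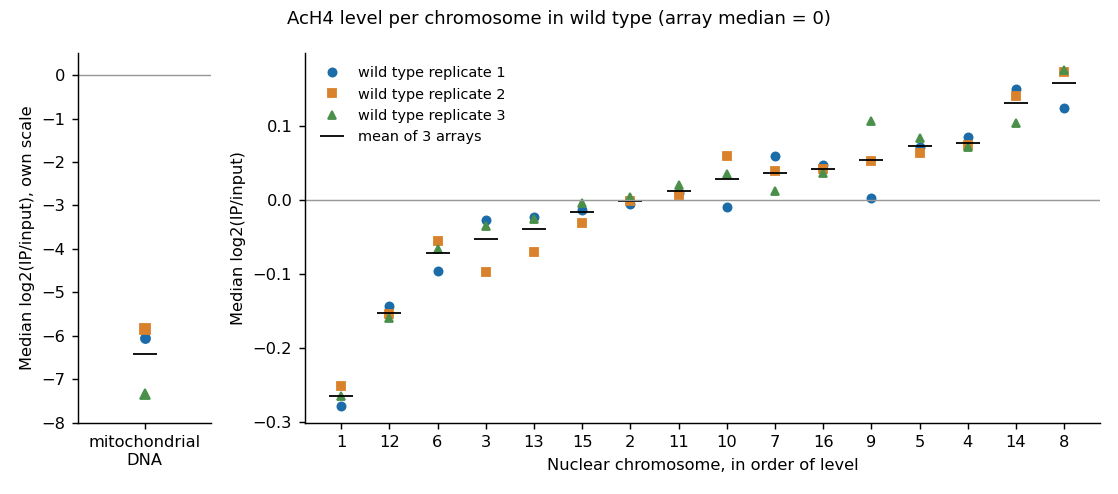
Median log2(IP/input) (y axis, array median at 0) of the mitochondrial DNA, on an axis of its own, and of each nuclear chromosome in order of level (x axis) on the 3 wild type arrays, with horizontal marks for the mean. Nuclear chromosomes lie between -0.27 and 0.16, and mitochondrial DNA lies at -6.05, -5.84 and -7.35.

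AcH4 was low at the chromosome ends, mostly within a few kb of the outermost probe. Distances were taken from the outermost probe at each end, which is not the telomere itself. At left ends this probe started between position 41 (chromosome 7) and position 19615 (chromosome 9). A bin thus pools probes at unlike distances from the telomere. The 79 probes in the first 1 kb averaged -2.13 ± 0.13 (SD, n = 3), those between 1 and 2 kb -1.50 ± 0.15, those between 2 and 5 kb -0.77 ± 0.09, and those between 5 and 10 kb -0.25 ± 0.03. Probes more than 100 kb from an end averaged -0.13 ± 0.04 (SD, n = 3). The return was not smooth: the level was -0.42 ± 0.04 between 10 and 15 kb, 0.02 ± 0.04 between 15 and 20 kb, and -0.34 ± 0.05 between 20 and 30 kb (SD, n = 3), and the 3 arrays moved together at each step.

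In the outer 20 kb the mean was -0.35, -0.41 and -0.45 in replicates 1 to 3, against -0.09, -0.14 and -0.15 for probes more than 50 kb from an end. The difference of -0.28 ± 0.02 (SD, n = 3) had the same sign on 3 of 3 arrays (two-sided exact sign-flip permutation test, p = 0.25, the lowest value 3 arrays allow). For the outer 2 kb the difference was -1.73 ± 0.11 (SD, n = 3). Probes called below the median made up 73.9% of the 138 probes in the outer 2 kb and 47.0% of the 1786 in the outer 20 kb, against 40.5% of all nuclear probes. Poor stretches held 50% of the probes in the outer 2 kb, against 23.0% of those more than 50 kb from an end, and rich stretches held 2.90% against 14.7%.

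The fall lay in the IP channel. In the first 1 kb the IP signal was at -1.79 ± 0.18 and input at 0.21 ± 0.08, while between 1 and 2 kb IP was at -1.62 ± 0.25 and input at -0.25 ± 0.13 (SD, n = 3). The size of the end gradient moved with the background step and with the normalization. It was -0.19 with plain background subtraction, -0.17 with normexp and -0.09 with loess after normexp.

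**Figure D5:**
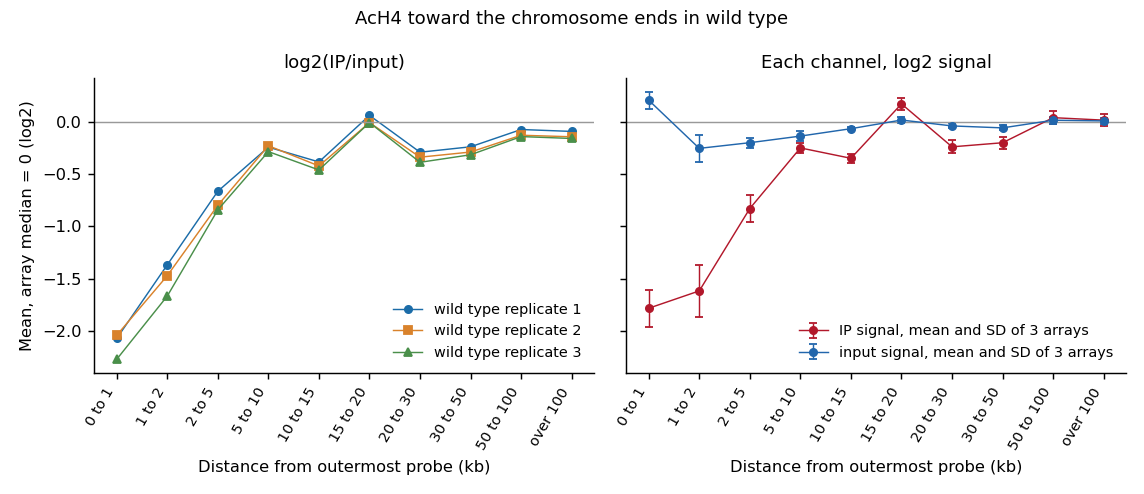
Mean log2(IP/input) on each wild type array (left) and mean log2 signal of each channel with the SD over 3 arrays (right), with the array median at 0, against the distance in kb from the outermost probe. The ratio is at -2.13 in the first 1 kb and -0.25 between 5 and 10 kb, and the course follows the IP signal rather than input.

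The 32 ends were far from alike. In the outer 20 kb 25 ends lay below the array median on all 3 arrays and 5 above it on all 3. Relative to probes more than 50 kb from an end, 20 of the 32 were lower on all 3 arrays. The lowest was the left end of chromosome 3, at -2.52, -2.45 and -2.83 in replicates 1 to 3 (49 probes), where 87.8% of the probes were called below the median. The right end of chromosome 1 followed at -1.90, -1.98 and -2.20, from only 13 probes, and the right end of chromosome 11 at -1.58, -1.51 and -1.72 (55 probes).

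At the other extreme the left end of chromosome 4 stood at 1.30, 1.17 and 1.22, with 17 probes in its outer 20 kb. Its 2 outermost probes averaged -0.73, and taken over the outer 30 kb the same end was at -0.29, so the high value came from its other 15 probes. The right end of chromosome 16 was at 0.43, 0.39 and 0.35 (76 probes) and the left end of chromosome 13 at 0.24, 0.00 and 0.06 (74 probes). Over the outer 30 kb the right end of chromosome 16 was at -0.04 and the left end of chromosome 13 at -0.09, and with loess after normexp the left end of chromosome 13 was at -0.09 as well. In the outer 5 kb 26 ends were below the median on all 3 arrays, and in the outer 2 kb 24 were. Over 50 kb from the ends, the 353 probes within 1 kb of the 50 gaps wider than 3 kb averaged -0.13 ± 0.07, against -0.13 ± 0.04 for the remaining probes there (SD, n = 3), a difference smaller than the spread between arrays.

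Mitochondrial DNA was far below every nuclear chromosome. The median log2(IP/input) of its 295 probes was -6.05, -5.84 and -7.35 in replicates 1 to 3, against 0.01, 0.02 and 0.02 for the nuclear probes. The difference was -6.43 ± 0.82 (SD, n = 3), with the same sign on 3 of 3 arrays (two-sided exact sign-flip permutation test, p = 0.25, the lowest value 3 arrays allow). Both channels moved apart. The mitochondrial IP signal was at -5.18 ± 0.82, and the input signal at 1.56 ± 0.07, which corresponds to 2.95 ± 0.14 times the nuclear median if signal is proportional to DNA, a relation that was not calibrated here (SD, n = 3).

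Only 16.3%, 7.12% and 16.3% of the mitochondrial probes were well above background in IP, against 94.5%, 89.6% and 98.7% of the nuclear probes. The median ratio of the mitochondrial probes well above background in IP was -6.23, -4.98 and -7.23 in replicates 1 to 3. The ratios of the other mitochondrial probes are limited by the floor of the IP channel, and the size of the gap is not fixed by these arrays. It was -4.23 with plain background subtraction, -3.23 with normexp and -3.15 with loess after normexp. On all 3 arrays together 15 mitochondrial probes were well above background in IP, with means between -7.34 and -1.11. The highest of these 15, between 82284 and 82343 of the mitochondrial genome, was at -1.48, -0.83 and -1.01 in replicates 1 to 3.

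Input was missing at a few places, where a ratio has no meaning. Runs of at least 3 probes with input at -3 or less on every wild type array were found on chromosome 3 between 91375 and 92339 (4 probes), on chromosome 3 between 148727 and 151480 (11 probes) and on chromosome 12 between 733708 and 734493 (3 probes). The input of the run of 11 probes was -3.85, -4.72 and -5.11 in replicates 1 to 3, and no input value of the 3 runs was well above background. The mutants were as dim there: of their 9 arrays, 9, 9 and 8 had a mean input of -3 or less at the 3 runs. With a limit of -2 a further run of 4 probes appeared, on chromosome 5 between 116139 and 116887. BY4741 lacks *LEU2* (YCL018W), *URA3* (YEL021W), *MET15* (YLR303W) and only a part of *HIS3* (YOR202W). Their systematic names place these genes on chromosomes 3, 5, 12 and 15. No run was found on chromosome 15 at either limit, chromosome 3 held 2 runs for 1 such marker, and the runs were not assigned to genes. Whether the missing part of *HIS3* is long enough to hold 3 probes was not checked. With the runs at -3 left out there were 1399 rich and 1558 poor stretches, and the end gradient was -0.28.

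The same measures were taken on each mutant array to see where the wild type landscape differed from that of the other strains. The 15 comparisons use the same 3 wild type arrays. With 3 arrays against 3 the exact permutation test cannot give a p below 0.1, or 0.167 after Benjamini-Hochberg adjustment over the 15, so none could pass a threshold of 0.05. The outer 20 kb minus the interior was -0.55, -0.48 and -0.49 in *rco1*Δ, against -0.26, -0.27 and -0.30 in wild type. Every *rco1*Δ array thus had a steeper end gradient than every wild type array, a difference in the means of -0.23 (two-sided exact permutation test, p = 0.1, adjusted p = 0.167). That difference was -0.17 with plain background subtraction, -0.11 with normexp and -0.33 in the deposited table. Scaled to the same spread on all arrays, a setting chosen after seeing the data, it was -0.69. The gradient was -0.33, -0.33 and -0.32 on the *rsc1*Δ arrays and -0.22, -0.25 and -0.20 on the *rsc2*Δ arrays. Neither strain overlapped wild type (two-sided exact permutation test, p = 0.1 and adjusted p = 0.167 for each), but the differences were small, at -0.05 for *rsc1*Δ and 0.05 for *rsc2*Δ. With a common spread the difference was -0.01 for *rsc1*Δ and 0.08 for *rsc2*Δ (two-sided exact permutation test, p = 0.4 and 0.1). Plain background subtraction gave -0.07 for *rsc1*Δ and 0.02 for *rsc2*Δ (two-sided exact permutation test, p = 0.3 and 0.8).

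Rich stretches held 2.00%, 1.35% and 4.37% of the nuclear probes on the *rco1*Δ arrays, against 12.6%, 14.3% and 15.5% on the wild type arrays. They held 18.5%, 16.9% and 17.5% on the *rsc1*Δ arrays and 15.5%, 16.9% and 16.96% on the *rsc2*Δ arrays. None of the mutants overlapped wild type, though the lowest *rsc2*Δ array, at 15.47%, was only just above the highest wild type array, at 15.45% (two-sided exact permutation test, p = 0.1 and adjusted p = 0.167 for each mutant). These shares depend on a fixed threshold and so on the spread of each array. Scaled to a common spread, the differences from wild type were 0.18 percentage points for *rco1*Δ, 0.33 for *rsc1*Δ and -0.47 for *rsc2*Δ. Poor stretches held 9.77% ± 0.17 of the probes on *rco1*Δ arrays, 24.7% ± 1.31 on *rsc1*Δ arrays and 24.5% ± 1.29 on *rsc2*Δ arrays, against 23.0% ± 2.18 on wild type arrays (SD, n = 3), and only *rco1*Δ did not overlap wild type. The difference of *rco1*Δ was -13.2 percentage points, and -3.63 with a common spread (two-sided exact permutation test, p = 0.1 for both).

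Scans and strains were partly crossed. One scan held wild type replicates 1 and 2 with replicate 1 of *rsc1*Δ and of *rsc2*Δ, and within it the end gradient was -0.33 for *rsc1*Δ and -0.22 for *rsc2*Δ, against -0.26 and -0.27 for wild type. Rich stretches held 18.5% of the probes for *rsc1*Δ and 15.5% for *rsc2*Δ in that scan, against 12.6% and 14.3% for wild type. The directions within the scan were those over all arrays, from a single array of each mutant. Neither mutant overlapped wild type in these measures, so any subset of the arrays must show them. They are therefore no check on an effect of the scan. No scan held both *rco1*Δ and wild type arrays, but *rco1*Δ replicate 1 and wild type replicate 3 were scanned on the same day, and their end gradients were -0.55 for *rco1*Δ and -0.30 for wild type. Rich stretches held 2.00% of the probes on that *rco1*Δ array, against 15.5% on that wild type array, and poor stretches 9.87% against 24.5%. These directions too were fixed in advance, since *rco1*Δ did not overlap wild type in any of these measures. The file headers give some arrays of different scans the same slide position, so slides were not used as batches.

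The SD of the chromosome levels was 0.0578 ± 0.00764 for *rco1*Δ, 0.105 ± 0.0129 for *rsc1*Δ and 0.0965 ± 0.00875 for *rsc2*Δ, against 0.107 ± 0.00137 for wild type (SD, n = 3). Only *rsc1*Δ overlapped wild type (two-sided exact permutation test, p = 0.1, 0.8 and 0.1, adjusted p = 0.167, 0.8 and 0.167). With a common spread the difference of *rco1*Δ from wild type was 0.00324. The distance over which neighboring probes agree, taken here within each array, was 751 ± 83.0 bp for *rco1*Δ, 754 ± 53.8 bp for *rsc1*Δ and 759 ± 61.4 bp for *rsc2*Δ, against 813 ± 22.6 bp for wild type (SD, n = 3). All 3 mutants overlapped wild type in this measure (two-sided exact permutation test, p = 0.3, 0.2 and 0.3, adjusted p = 0.375, 0.3 and 0.375), and a difference could not be shown at this number of arrays.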

How the data were processed

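Each array was scanned and quantified by the authors with Agilent Feature Extraction 10.5.1.1. The deposited scanner files hold spot and background intensity values on a linear scale, background-subtracted and dye-corrected processed intensities, and a log10 ratio of Cy5 over Cy3, used here only to check the direction. A deposited table holds normalized log2 ratios, for which the authors name median and Aquantile normalization in limma. Its columns were straight-line functions of the log2 ratio after plain background subtraction.

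Log2 ratios were computed from the processed signals after removal of 3444 control spots and of outlier-flagged spots (995, 2 and 3 in wild type replicates 1 to 3), and each array was centered on its median. Probes and 10 kb windows with at least 10 probes were tested against 0 with lmFit and eBayes (limma 3.58.1, R 4.3.3) on the wild type arrays, and the script was tested on simulated data. The 992 nuclear probes lacking an array were fitted on the others. Other comparisons used exact permutation tests in Python 3.11.15. No spot was saturated. The rule for named positions took the 3 highest and 3 lowest chromosomes and ends, the 3 longest stretches of each kind, the 5 highest and 5 lowest called windows and all input-dim runs. Alternatives were other background corrections (normexp with an offset of 50), loess, the deposited table, filters, thresholds, window sizes and each array left out. Measures, stretches and rules were chosen with earlier results of these data known. Chance was not simulated.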

Additional observations from a re-analysis of the deposited data

Results flagged for a closer look

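In the end gradient (outer 20 kb minus probes more than 50 kb from an end), every *rsc2*Δ array lay above and every *rsc1*Δ array below the 3 wild type arrays, and the means of *rsc2*Δ and *rsc1*Δ differed by 0.103. Every *rsc2*Δ array was also above wild type while every *rco1*Δ array was below it, with means that differed by 0.284. For the share of nuclear probes in rich stretches, every *rsc1*Δ array was above and every *rco1*Δ array below wild type, a difference of 15.1 percentage points between the mutants, and for *rsc2*Δ and *rco1*Δ it was 13.9 percentage points. These differences between mutants were not tested, and both sides of each are set against the same wild type arrays. They also depend on the spread of each array. With a common spread, rich stretches differed from wild type by 0.33 percentage points in *rsc1*Δ, -0.47 in *rsc2*Δ and 0.18 in *rco1*Δ. The end gradient then differed from wild type by -0.01, 0.08 and -0.69 in the same order.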

How the results depend on the processing

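Each alternative changed 1 choice, except that loess followed normexp and that the deposited table differs in both background step and normalization. Of 282 alternatives for single positions 143 moved the value by less than the spread between arrays, and 12 changed its sign. These 12 were the left end of chromosome 13 at -0.0885 with loess after normexp and -0.0856 over 30 kb, chromosome 6 at 0.00575 with loess after normexp, chromosomes 1, 12 and 6 at 0.0197, 0.13 and 0.16 with probes well above background, chromosomes 4, 14 and 8 at -0.10, -0.0392 and -0.0533 as means, the left end of chromosome 4 at -0.73 over 10 kb and -0.29 over 30 kb, and the right end of chromosome 16 at -0.0439 over 30 kb. The end gradient and the mitochondrial difference kept their sign under every alternative run.

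With plain background subtraction, normexp, loess after normexp and the deposited table, in that order, the range of chromosome levels was 0.35, 0.30, 0.15 and 0.33, the agreement distance 577, 526, 349 and 577 bp, the median width of rich stretches 722, 687, 628 and 709 bp and that of poor stretches 1028, 827.5, 701 and 979 bp. The end gradient was -0.19, -0.17, -0.0885 and -0.19 and the mitochondrial minus nuclear level -4.23, -3.23, -3.15 and -3.97. Normexp left 775 rich and 724 poor stretches and loess after normexp 161 and 340. Loess after normexp called 11194 probes above the median and 11559 below. Windows below the median numbered 337 with plain subtraction, 253 with normexp, 379 in the deposited table and 382 with probes well above background, where 420, 454, 470 and 624 were above. Loess after normexp called 300 windows above and 439 below. Windows of 5 kb gave 963 above and 1052 below, and windows of 20 kb 186 and 320. Why the background step and the normalization move these values was not tested.

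With probes well above background the range of chromosome levels was 0.29, the agreement distance 433 bp, the median rich width 809 bp and the end gradient -0.21. The range of chromosome levels was 0.41 with outlier-flagged spots kept, 0.33 for means and 0.53 over 50 kb from the ends. The agreement distance was 603 bp with Spearman correlation and 813 bp within an array. At a threshold of 0.5 there were 2333 rich stretches of median width 970 bp and the median poor width was 1247 bp, and at 1.5 there were 545 rich stretches of 670 bp. With at least 2 probes the numbers were 2483 rich stretches, 517 bp and, for poor, 800 bp. With at least 5 probes there were 445 rich stretches of 1307 bp and 873 poor ones of 1699 bp. The end gradient was -0.55 over 10 kb and -0.25 over 30 kb.

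Without 1 wild type array the range of chromosome levels lay between 0.41 and 0.43 and the agreement distance between 654 and 679 bp, with 14428 to 16765 probes called above the median and 14958 to 16867 below. The end gradient was between -0.28 and -0.27 and the mitochondrial difference between -6.71 and -5.96. Differences of *rsc1*Δ from wild type in the SD of chromosome levels lay between -0.00765 and 0.00522 without 1 array, the upper value without *rsc1*Δ replicate 2, and at 0.000934 with normexp. The difference in poor stretches was -0.48 percentage points for *rsc2*Δ with plain subtraction. The deposited table gave -0.67 for *rsc1*Δ and -1.59 for *rsc2*Δ, and a common spread -0.35 and -0.28. In rich stretches it was -0.56 for *rsc2*Δ with the deposited table, and with a common spread -0.47 for *rsc2*Δ and 0.18 for *rco1*Δ, where the SD of chromosome levels differed by 0.00324 for *rco1*Δ. The common spread and the levels over 50 kb from the ends were chosen after seeing the data. Replicate numbers did not pair the arrays, since same-numbered arrays had correlations of their deviations between -0.25 and 0.02. With the number as a replicate block the exact sign-flip permutation p was between 0.25, its smallest, and 1, with the same differences as without it, such as -0.23 for the end gradient of *rco1*Δ.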
